A study of Mus musculus with 816 samples.

Results

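The colony-stimulating factors and their receptors were followed by name through a 3′-end RNA sequencing study of mouse microglia. The set holds 9 genes: the ligands Csf1, Csf2, Csf3 and Il34, and the receptor chains Csf1r, Csf2ra, Csf2rb, Csf2rb2 and Csf3r. All 9 were listed among the 45581 genes of the culture table and among the 29858 genes of the mouse table. The cultures were primary microglia bought from a supplier, prepared from the brains of newborn mice and kept in wells. They formed 98 groups of stimulus and time, with 63 cultures at 4 h, 418 at 24 h and 303 at 72 h. Cultures were left untreated for 24 h (n = 40 cultures) or 72 h (n = 25), or received 1 of 64 stimuli or mixtures for 4 h (9 groups), 24 h (44 groups) or 72 h (42 groups). The stimuli used most here are GMCSF, the protein that Csf2 encodes (0.000005 ug/ul), LPS (bacterial lipopolysaccharide, labelled LPS_hi at 0.0001 ug/ul and LPS_lo at 0.00001 ug/ul), the lipopeptide P3C (0.001 ug/ul) and the double-stranded RNA polyIC (labelled IC, 0.2 ug/ul). IFNb, IFNg and TGFb were given at 0.0001 ug/ul, IFNa at 0.0008 ug/ul, IL4, IL10 and IL13 at 0.00005 ug/ul, TNFa at 0.000004 ug/ul and the prostaglandin PGE2 at 0.001 ug/ul. The chemokines CCL2 and CCL7 were given at 0.0001 ug/ul, ATP and nicotine at 1000 uM and norepinephrine at 1 uM. Minocycline was given at 20 uM, resveratrol at 50 uM, GABA at 100 uM, s100B at 0.00003 ug/ul and estradiol at 1 nM. For a mixture the labels give a single dose. Microglia were also taken from 32 C57BL/6 mice by magnetic sorting for CD11b, a surface protein that monocytes and neutrophils share. In the first experiment, 2 month old female mice received LPS (2 mg/kg, n = 4) or PBS (n = 4) into the abdominal cavity 4 h earlier. In the second, males of 22 months (n = 13) were compared with males of 2 months (n = 11). Their labels call them naive, while the header of the table calls them vehicle, and the labels were followed.

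Colony-stimulating factors are secreted proteins that control the survival, growth and activation of myeloid cells. Csf1 (M-CSF) and Il34 both bind the receptor tyrosine kinase Csf1r, on which microglia depend for survival in the brain. Csf2 (GM-CSF) binds the alpha chain Csf2ra, which signals only together with the beta common chain Csf2rb, through the kinase Jak2 and the transcription factor Stat5. The beta common chain also serves the receptors for IL3 and IL5, and mice carry a second copy, Csf2rb2, that serves IL3. Csf3 (G-CSF) binds Csf3r, the receptor that drives the production of neutrophils.

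Values are CPM, that is, the gene's reads per 1e6 reads mapped in the sample. The depth was between 1.00 and 38.2 M mapped reads (M for 1e6) in cultures and between 2.36 and 7.78 M in mice. Fold changes are differences of means on the log2(CPM + 1) scale, which understates changes of genes with low values, from limma fits with Benjamini-Hochberg adjustment over all genes tested. A change was called at an adjusted p under 0.05. Stimuli of 24 and 72 h were compared with untreated cultures of the same time in a fit that included the culture plate, and all stimuli of a time share those untreated cultures. Untreated cultures of 24 h and of 72 h were on different plates, so a difference between these times cannot be told apart from one between plates. No untreated culture carries the label 4 h, and therefore LPS was compared there with other stimuli of 4 h. Whether wells of a group came from separate preparations is not labelled, so p-values measure the spread between wells. The header gives 3 source IDs for the cultures, taken here as lots of cells. Of the members, 7 passed the filter of more than 5 CPM in at least 4 cultures, and Csf2 and Il34 did not. In the bulk RNA of a well or of a sorted pool, fewer cells of a type and less RNA per cell cannot be told apart. The summed level of 10 genes of homeostatic microglia, such as P2ry12 and Tmem119, was 136 to 7061 CPM in the cultures and 23842 to 47557 CPM in the mice. That of 6 genes of the macrophage lineage was 2837 to 16632 CPM and 12676 to 28382 CPM, in that order.

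At 24 h, 47 changes of a member were called among 44 conditions, and at 72 h 64 among 42 conditions. Over all genes tested, 6.43% of the comparisons at 24 h (2.13% higher, 4.31% lower) and 10.0% of those at 72 h (4.87% higher, 5.17% lower) were called. Csf2rb and Csf1r carried most of the members' calls. Csf2rb was higher in 11 conditions at 24 h and in 20 at 72 h, and lower in 0 at either time. Csf1r was lower in 13 conditions at 24 h and higher in 0, and at 72 h it was lower in 8 and higher in 6. Csf2rb2 was called mostly as a fall at 72 h (10 lower, 2 higher), and Csf3r mostly as a rise at 24 h (9 higher, 0 lower). Csf3 rose in 7 conditions at 24 h and in 2 at 72 h. Csf1 was called in 3 and 6 conditions and Csf2ra in 2 and 7. When a second agent was added to a first, 22 changes of a member were called among 25 pairs (4.27% of all gene tests). Between stimuli there were 5 in 6 comparisons (2.83%), and between 72 and 24 h there were 5 (3.93%).

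**Figure D1:**
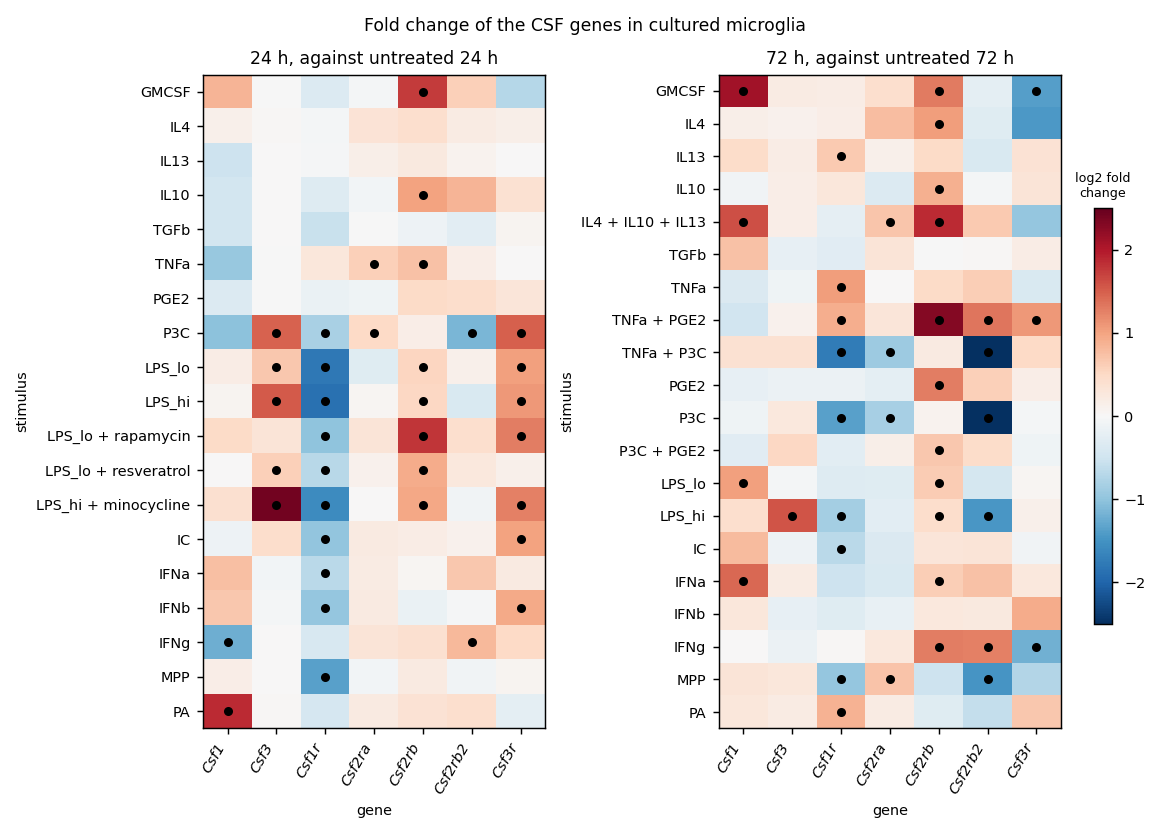
Log2 fold change of the 7 members that passed the filter (columns) with selected stimuli at 24 h and 72 h (rows of the left and right panel), each against untreated cultures of the same time; colours end at -2.5 and 2.5, and black dots mark an adjusted p under 0.05 (limma). Csf2rb is higher and Csf1r mostly lower among the dotted cells at 24 h, and at 72 h the dots of Csf2rb2 are mostly falls.

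Csf1, the main ligand of Csf1r in most tissues, lies on chromosome 3 (GRCm38, 107741048 to 107760469, minus strand). In untreated cultures the lowest, median and highest values were 0, 5.32 and 33.1 CPM at 24 h and 0, 0 and 5.20 CPM at 72 h. After 4 h of LPS_hi it stood at 33.1, 55.9, 47.4, 82.9, 62.0, 144 and 123 CPM. After 4 h of the chemokine CCL2 it stood at 3.49, 5.52, 5.51, 25.6, 1.20, 0.444 and 2.21 CPM, and after CCL7 at 2.57, 6.32, 7.04, 14.4, 0.994, 0.992 and 0.295 CPM. Every LPS_hi culture was above every culture of the chemokines, a separation found for 4.77% of all genes, and the rise was 4.09 ± 0.45 (SE) on the log2 scale (limma with Benjamini-Hochberg adjustment, p = 5.1e-17; 2.76 and 5.13 on the 2 plates).

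The 4 h rise of Csf1 recurred against 3 other stimuli given with or without LPS_hi. With nicotine the lowest, median and highest values were 33.9, 54.3 and 81.02 CPM with LPS_hi and 0, 0.402 and 5.49 CPM without, a rise of 4.81 ± 0.48. With norepinephrine they were 22.2, 38.4 and 97.4 CPM with LPS_hi and 0, 0.623 and 19.2 CPM without, a rise of 3.51 ± 0.50. With ATP, the ligand of purinergic receptors, they were 30.9, 38.4 and 56.2 CPM with LPS_hi and 4.44, 7.06 and 35.3 CPM without, a rise of 2.26 ± 0.59. The groups did not overlap for nicotine (4.16% of all genes) and norepinephrine (2.87%) and overlapped for ATP. All 4 comparisons were called (adjusted p = 5.1e-17, 1.2e-19, 3.5e-10 and 0.0035 in limma, in the order given), where 6.37% of all comparisons at 4 h were called higher. The last of them was lost without plate in the model and with a pseudocount of 0.1.

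Csf1 was not called with LPS_hi at 24 or 72 h. It was 0 to 14.2 CPM in the 18 cultures of LPS_hi at 24 h (log2 fold change 0.07, adjusted p = 0.888 in limma) and 0 to 5.69 CPM in the 13 cultures at 72 h. At 72 h, Csf1 rose with GMCSF. The 7 cultures held 2.00, 7.32, 3.90, 17.3, 0.603, 1.93 and 8.90 CPM, and the untreated median was 0. The values overlapped with the highest untreated cultures, and the rise was 2.09 ± 0.45 (adjusted p = 0.00014), between 1.77 and 2.42 on the 2 plates. At 24 h the GMCSF difference of Csf1 was 0.85 ± 0.38 and was not called (adjusted p = 0.233), and the change in the effect between times, 1.24 ± 0.59, was not called either (adjusted p = 0.25).

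Csf1 also rose with other stimuli of 72 h. It rose with IFNa by 1.44 ± 0.45 (limma adjusted p = 0.019), with LPS_lo by 1.03 ± 0.35 (p = 0.03) and with LPS_lo plus IL4 by 1.92 ± 0.51 (p = 0.0037). Without the culture of 18.03 CPM the last of these was 1.33 (p = 0.189). With the mixture of IL4, IL10 and IL13 the rise was 1.61, but it was 0.84 (adjusted p = 0.38) without the culture that held 41.3 CPM. In all 3 TNFa cultures of 72 h Csf1 was listed at 0. At 24 h it fell with IFNg by 1.21 ± 0.37 (adjusted p = 0.011), a call that was lost without plate in the model.

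At 24 h the largest Csf1 rise was that with PA (palmitic acid, 150 uM), 1.87 ± 0.43 (limma adjusted p = 0.026). It rests on the 3 cultures of 1 plate, which held 98.4, 97.3 and 95.0 CPM, while the other 3 cultures held 4.77, 13.6 and 5.92 CPM. Without those 3 cultures the difference was 0.16 (adjusted p = 1).

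**Figure D2:**
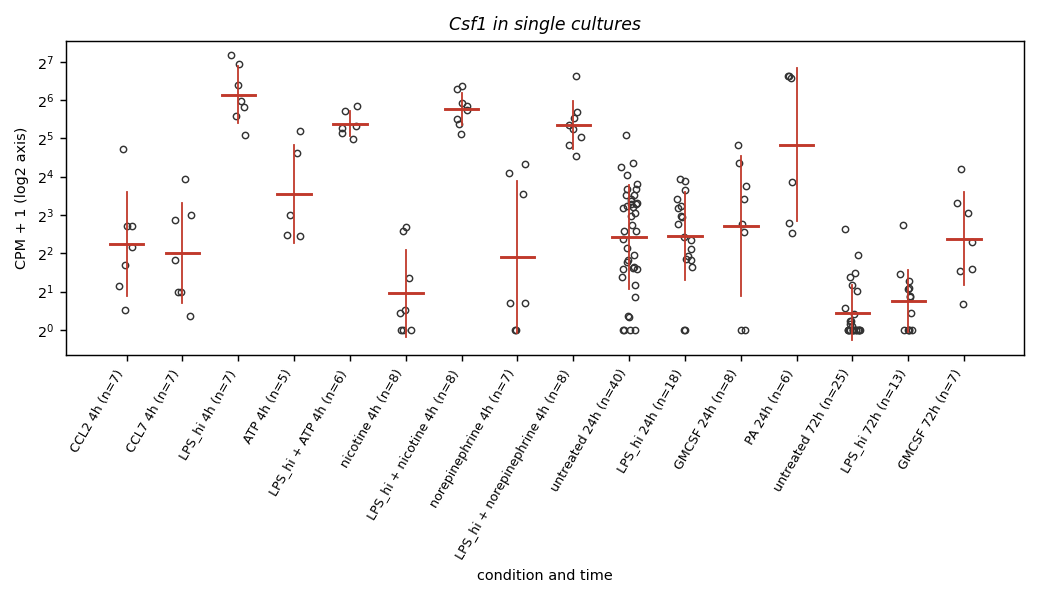
Csf1 in each culture of 16 groups, as CPM + 1 on a log2 axis; points are cultures, and the red line and bar are the mean and SD of the log2 values. The 4 groups given LPS_hi for 4 h lie at 22.2 CPM or more in every culture, and the PA group splits into 3 cultures of 95.0 CPM or more and 3 of 13.6 CPM or less.

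The 250 bases before the Csf1 start are shown because Csf1 changed most of the members within 4 h of LPS. The sequence is that of RefSeq (GRCm38.p6, chr3:107760470-107760719, minus strand), and capitals mark a match to the NF-kB motif (GGG, any 2 bases, then TTTCC), which lies on the strand opposite to the gene with its first base 154 bases before the start.
Csf1: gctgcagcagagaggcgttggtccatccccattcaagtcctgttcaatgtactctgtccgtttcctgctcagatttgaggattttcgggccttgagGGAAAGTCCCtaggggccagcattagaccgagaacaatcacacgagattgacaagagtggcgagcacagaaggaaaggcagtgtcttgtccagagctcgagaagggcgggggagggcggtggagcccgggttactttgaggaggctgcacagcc
On either strand, this motif occurs in 1.41% of 32851 promoter windows of the same length. Genes of the NF-kB and AP-1 families, with Cebpd, were read in the 4 h comparison with the chemokines. Of 9 tested, 7 rose, led by Nfkb2 (3.86), Rel (3.61) and Junb (2.75), and Fosl2 fell by 1.48, where 6.84% of all genes were called higher and 26.5% lower. A match of letters in a promoter is a description and does not show binding.

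Csf3, the ligand of Csf3r, lies on chromosome 11 (GRCm38, 98701263 to 98703629, plus strand). It was above 0 CPM in 147 cultures. These included 74 of the 184 cultures given LPS alone or in a mixture (40.2%) and 73 of the 600 others (12.2%). The cultures with Csf3 were deeper, with a median of 6.75 M mapped reads against 4.22 M in those without. The part of depth in these shares was not tested.

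After 24 h of LPS_hi, Csf3 was above 0 in 15 of 18 cultures, with a median of 1.57 and a highest value of 22.1 CPM. In untreated cultures of 24 h it was above 0 in 7 of 40 and reached 1.84 CPM. The groups overlapped, and the rise was 1.53 ± 0.14 (limma adjusted p = 6.4e-24). At 72 h it was above 0 in 9 of 13 LPS_hi cultures and in 2 of 25 untreated ones, whose highest value was 0.182 CPM, a rise of 1.57 ± 0.17 (p = 4.3e-17). At 72 h Csf3 was listed at 0 in all 11 cultures of LPS_lo, and LPS_hi exceeded LPS_lo by 1.63 ± 0.21 (adjusted p = 1.7e-11). At 24 h Csf3 also rose with LPS_lo, by 0.68 ± 0.21 (p = 0.0081). The difference between the doses at 24 h was 0.86 ± 0.23 (p = 0.047), a call that was lost under 3 alternatives. At 4 h Csf3 was called in 0 of the 4 LPS_hi comparisons, with differences of 0.03 to 0.27.

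P3C, which acts through the receptor Tlr2, also came with Csf3. The 6 cultures of 24 h held 4.57, 6.92, 0.593, 1.96, 0 and 2.51 CPM, a rise of 1.47 ± 0.22 (limma adjusted p = 2.4e-09). Between 24 and 72 h this P3C effect fell by 1.21 ± 0.32 (adjusted p = 0.0062), a call lost with a pseudocount of 0.1. The highest group mean was that of LPS_hi with minocycline at 24 h, 12.2 ± 23.1 CPM (SD, n = 7), in which 1 culture held 64.4 CPM and the others at most 4.59 CPM. Its rise over untreated cultures was 2.42 ± 0.21 with that culture and 1.84 without it.

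Csf2 and Il34 were close to the limit of detection, and no test was run on them. Csf2, the GM-CSF ligand itself, lies on chromosome 11 (GRCm38, 54247271 to 54249667, minus strand) and was above 0 CPM in 31 cultures. It was above 0 in 19 of the 184 cultures with LPS (10.3%) and in 12 of the 600 others (2.00%), at median depths of 4.71 M in the cultures with Csf2 and 4.65 M in those without. After 4 h of LPS_hi it was detected in 5 of 7 cultures, at 0.437, 0.621, 0, 2.81, 0, 0.495 and 1.19 CPM. Of the other cultures given LPS_hi for 4 h, it was above 0 in 0 of 6 with ATP, in 1 of 8 with nicotine and in 1 of 8 with norepinephrine. Over the 31 cultures with Csf2 the median was 2.00 reads, and the highest value, 10.97 CPM, was in 1 culture of LPS_lo with estradiol at 72 h.

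Il34, the second ligand of Csf1r, lies on chromosome 8 (GRCm38, 110741829 to 110805924, minus strand) and was above 0 in 41 cultures. Its shares were 5.43% with LPS (10 of 184) and 5.17% without (31 of 600). The median depth was 6.76 M in the cultures with Il34 and 4.52 M in those without, and the part of depth was not tested. The highest values, 7.80 and 4.66 CPM, were in cultures given LPS_hi for 4 h with norepinephrine and with nicotine.

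Csf1r, the receptor of Csf1 and Il34, lies on chromosome 18 (GRCm38, 61100598 to 61132149, plus strand). Across 97 conditions with at least 3 cultures its mean ran from 828 CPM (TNFa with P3C, 72 h) to 5033 CPM (resveratrol, 24 h), and no neighbours in this order differed beyond their SDs. In untreated cultures the lowest, median and highest values were 2175, 3927 and 6886 CPM at 24 h and 618, 2741 and 5115 CPM at 72 h. With LPS_hi at 24 h they were 437, 881 and 2364 CPM (n = 18). The groups overlapped at their edges, and Csf1r fell by 1.86 ± 0.13 on the log2 scale (limma adjusted p = 3.1e-41), between 0.84 and 2.61 on 6 of 6 plates. In that comparison 25.3% of all genes were called lower, and the median of all genes was -0.18. The summed level of the homeostatic list was 213 to 704 CPM with LPS_hi and 1181 to 3796 CPM in untreated cultures of 24 h, with 1 of its 10 genes higher and 7 lower. That of the macrophage lineage list, which includes Csf1r itself, was 2916 to 6141 and 6515 to 12253 CPM, with 3 of 6 genes higher and 2 lower. Their part in the Csf1r fall was not tested. LPS_lo lowered Csf1r by 1.79 ± 0.18 (568, 859 and 2217 CPM, n = 7).

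The Csf1r fall with LPS was already called at 4 h and became smaller at 72 h. At 4 h the values were 1627, 1784 and 2146 CPM with LPS_hi and 2746, 4649.7 and 5964 CPM with the chemokines. These groups did not overlap, as was so for 4.77% of all genes. The fall was 1.24 ± 0.20, where the median of all genes was -0.37 and 26.5% of all genes were called lower. The falls with nicotine (0.95 ± 0.22) and norepinephrine (0.76 ± 0.23) were called as well, and the difference with ATP, -0.62, was not (limma adjusted p = 0.142). At 72 h the values with LPS_hi were 491, 1159 and 2596 CPM, a fall of 0.85 ± 0.15 (p = 8.2e-07, 4 of 4 plates). The LPS_hi effect at 72 h was 1.01 ± 0.20 closer to 0 than at 24 h (p = 3.4e-05 for the difference). With LPS_lo at 72 h the difference was -0.33 and was not called (p = 0.172).

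Other ligands of innate receptors and the type I interferons also lowered Csf1r at 24 h. It fell with polyIC by 0.99 ± 0.17, with IFNb by 0.97 ± 0.16, with P3C by 0.81 ± 0.20 and with IFNa by 0.67 ± 0.17 (limma adjusted p = 8.9e-07, 9.6e-08, 0.00054 and 0.0019). The direct comparison of LPS_hi with P3C gave a further fall of 1.05 ± 0.21 (p = 5.2e-05). The mitochondrial toxin MPP (100 uM) lowered Csf1r by 1.36 ± 0.17 at 745 to 1529 CPM, without overlap with untreated cultures (0.266% of all genes). At 72 h it fell with P3C by 1.35 ± 0.21 (p = 5.8e-09) and with TNFa plus P3C by 1.74 ± 0.20.

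Rises of Csf1r were called at 72 h alone among the comparisons with untreated cultures. They came with TNFa (1.04 ± 0.28, limma adjusted p = 0.0019), a call of 3 cultures that was lost with library pool in place of plate, TNFa plus PGE2 (0.90 ± 0.19, p = 3.6e-05), PA (0.87), s100B (0.77), GABA (0.66) and IL13 (0.65). The calls with s100B, GABA and IL13 were also lost with library pool. GMCSF changed Csf1r by -0.33 ± 0.17 at 24 h (p = 0.344) and by 0.19 at 72 h (p = 0.682), neither of them called. TGFb, which supports the microglial state in the brain, gave -0.55 at 24 h (limma adjusted p = 0.108) and -0.29 at 72 h (p = 1), neither of them called.

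Transcription factors known to act on the Csf1r gene moved in both directions with LPS_hi. Of 8 tested at 24 h, 3 rose and 4 fell, where 8.73% and 25.3% of all genes were called higher and lower. Cebpb rose by 1.93, while Cebpa fell by 2.73 and Jun by 1.39. At 4 h 4 rose and 4 fell, Cebpa by 4.49. Among 11 signalling partners of Csf1r, 2 rose and 2 fell at 24 h, among them the kinase Syk (1.53), the adaptor Tyrobp (fell by 1.17) and the phosphatase Inpp5d (fell by 0.87). Of the 4 genes for further Il34 receptors and for proteases that shed Csf1r, 1 rose and 2 fell.

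Csf3r, the G-CSF receptor, lies on chromosome 4 (GRCm38, 126024550 to 126044440, plus strand). Its lowest, median and highest values in untreated cultures were 0, 6.31 and 15.6 CPM at 24 h and 1.34, 7.28 and 43.4 CPM at 72 h. With LPS_hi at 24 h the values were 6.75, 13.1 and 30.6 CPM, a rise of 1.09 ± 0.24 (limma adjusted p = 4.3e-05, higher on 6 of 6 plates). With P3C they were 4.58, 18.1 and 43.7 CPM, a rise of 1.50 ± 0.37 (p = 0.00077). Both groups overlapped with untreated cultures. Rises with polyIC (1.01 ± 0.33, p = 0.027), IFNb (0.94 ± 0.30, p = 0.021) and LPS_lo (1.03 ± 0.35, p = 0.021) were nearer to the threshold. Without 1 culture of 24.0 CPM the IFNb value had an adjusted p of 0.061, the polyIC call was lost without plate in the model, and the LPS_lo call with a pseudocount of 0.1.

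With GMCSF at 72 h Csf3r moved the other way. The cultures held 1.45, 4.89, 0.587, 1.51, 0.905, 0.934 and 3.53 CPM, against an untreated median of 7.28 CPM. The groups overlapped, and Csf3r fell by 1.37 ± 0.38 (limma adjusted p = 0.0069), on both plates. At 24 h the 8 GMCSF cultures held 1.07, 4.38, 1.43, 2.91, 29.2, 3.31, 10.1 and 1.36 CPM, a difference of -0.71 ± 0.33 that was not called (p = 0.26). At 72 h Csf3r also fell with IFNg, by 1.19, and rose with TNFa plus PGE2, by 1.09, and neither call held when only the cultures of the condition and its reference were fitted (adjusted p = 0.24 and 0.10).

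**Figure D3:**
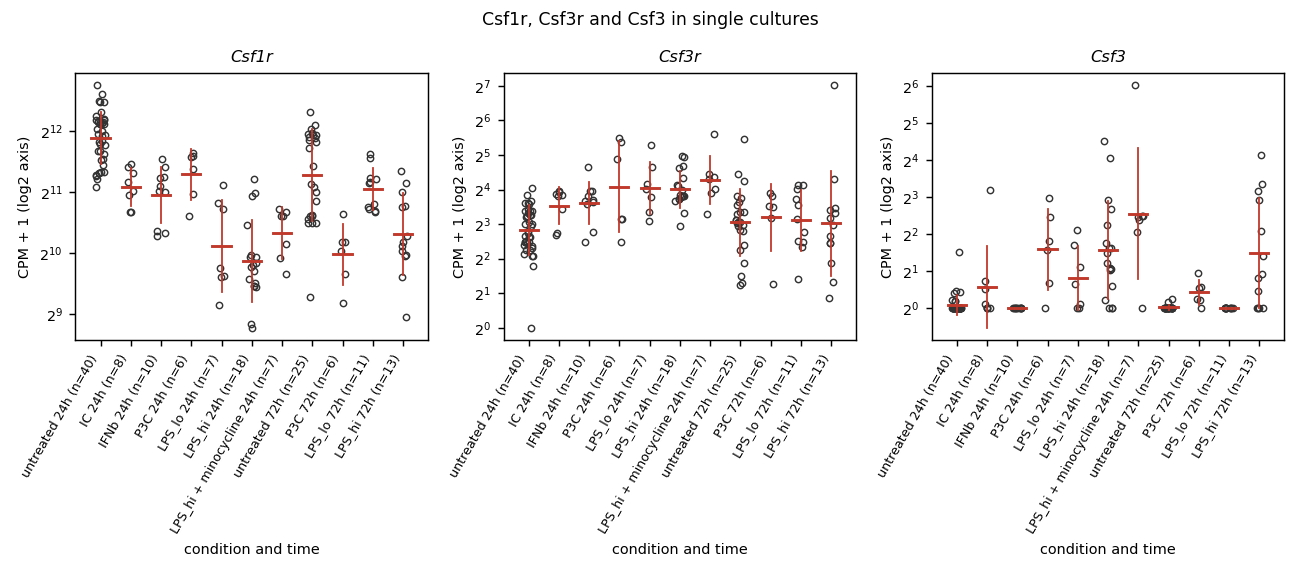
Csf1r, Csf3r and Csf3 in each culture of 11 groups, as CPM + 1 on log2 axes; points are cultures, and the red line and bar are the mean and SD of the log2 values. With LPS_hi at 24 h Csf1r lies mostly below, and Csf3 and Csf3r mostly above, the untreated cultures of 24 h.

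Csf2ra, the GM-CSF-binding alpha chain, lies on chromosome 19 (GRCm38, 61223957 to 61228429, minus strand). It was detected in every culture, from 95.5 to 1151 CPM, and its condition means from 184 to 692 CPM. Untreated values were 162, 380 and 586 CPM at 24 h and 127, 435 and 544 CPM at 72 h (lowest, median and highest). GMCSF itself gave differences of -0.05 at 24 h and 0.41 at 72 h (limma adjusted p = 0.144 for the latter), and LPS_hi one of 0.04 at 24 h, none of them called.

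Csf2ra fell with P3C at 72 h. The P3C cultures of 72 h held 264, 231, 242, 155, 384 and 158 CPM, a fall of 0.83 ± 0.19 (limma adjusted p = 0.00023) with overlap. The mixture of TNFa, P3C, PGE2 and IFNb lowered it by 1.19 ± 0.18, and TNFa with P3C by 0.90. At 24 h the P3C cultures held 421, 360.3, 488, 630.1, 677 and 408 CPM, a rise of 0.49 ± 0.18 (p = 0.033) that was lost under 3 alternatives. The P3C effect differed between the times by -1.32 ± 0.26 (p = 5.1e-05). Csf2ra rose with TNFa at 24 h (0.60 ± 0.17, p = 0.01), a call lost without plate in the model, and with IL4, IL10 and IL13 together at 72 h (0.70, p = 0.007).

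Csf2rb, the beta common chain, lies on chromosome 15 (GRCm38, 78325752 to 78353847, plus strand). Csf2rb2 lies 20.0 kb from it in the opposite orientation (78282507 to 78305721, minus strand). The copies share sequence: of the 75-base words in the last 500 bases of their transcripts, where 3′-end reads fall, 5.38% of those of Csf2rb were found in Csf2rb2 and 1.64% the other way. Reads from the shared stretches could be assigned to either, so small differences between the chains are uncertain.

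Csf2rb rose with GMCSF at both times. With GMCSF at 24 h the 8 cultures held 463, 447, 683, 455, 206, 344, 236 and 346 CPM, against 40.3, 132 and 235 CPM in untreated cultures (lowest, median and highest). Only the lowest GMCSF culture lay in the untreated range. Csf2rb rose 3.38-fold, by 1.76 ± 0.17 on the log2 scale (limma adjusted p = 4.8e-20), where 1.89% of all genes were called higher. The values were 1.72 and 1.78 on the 2 plates. With GMCSF at 72 h the 7 cultures held 281, 306, 220.4, 333, 203, 183 and 252 CPM, against 47.1, 88.2 and 153 CPM. These groups did not overlap, as was so for 0.366% of all genes, and the rise was 1.30 ± 0.20 (p = 1.4e-08), where 7.76% of all genes were called higher. Csf2rb2, its paralogue, differed by 0.59 ± 0.26 at 24 h (p = 0.212) and by -0.24 at 72 h (p = 0.757), neither called.

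Csf2rb also rose with IL10 and with PGE2. With IL10 at 24 h the 9 cultures held 249, 302 and 502 CPM (lowest, median and highest), above every untreated culture (0.0944% of all genes), a rise of 1.01 ± 0.16 (limma adjusted p = 8.7e-07, higher on 3 of 3 plates). At 72 h the IL10 rise was 0.89 ± 0.21 (p = 0.0018). The mixture of IL4, IL10 and IL13 reached 241, 306 and 672 CPM at 72 h, again without overlap (0.384% of all genes), a rise of 1.86 ± 0.21 (p = 2.2e-15). PGE2 alone gave 106 to 290.3 CPM at 72 h, a rise of 1.28 ± 0.18 (p = 3.1e-09). TNFa with PGE2 gave 470, 494, 709 and 521 CPM on 1 plate and 273, 301, 251 and 214 CPM on the other, all above the untreated cultures (0.891% of all genes). Its rise, 2.29 ± 0.18 (p = 1.4e-30), was the largest of Csf2rb over all conditions of 24 and 72 h. The summed CPM of 9 neutrophil genes was 21.4 to 749 in these 8 cultures and 0.594 to 149 in untreated cultures of 72 h, with S100a9, Ly6g, Ngp, Ltf and Retnlg at 0 in all 8. The list of 5 perivascular macrophage genes summed to 665 to 6069 CPM in these cultures and 91.4 to 707 CPM in untreated ones, with 2 genes higher, 1 lower and Lyve1 at 0 in all 8. The homeostatic list summed to 224 to 833 and 349 to 2016 CPM, with 4 of 10 genes lower. Their part in the Csf2rb rise was not tested. IL4 alone gave a rise of 1.05 ± 0.28 at 72 h, which was not called when only these cultures and the untreated ones were fitted (p = 0.18) or without 1 culture (limma adjusted p = 0.0963).

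IFNg gave a Csf2rb rise of 1.28 ± 0.20 at 72 h (136 to 266 CPM, limma adjusted p = 2.5e-08) and TNFa with IFNg one of 1.35 ± 0.18. TNFa alone raised it by 0.74 ± 0.18 at 24 h (p = 0.002). LPS_hi raised Csf2rb by 0.51 ± 0.12 at 24 h (p = 0.0002), higher on 6 of 6 plates, and by 0.43 ± 0.15 at 72 h (p = 0.021). The call at 72 h was lost without plate in the model. Rapamycin, an inhibitor of mTOR (5 nM), was given with LPS_lo for 24 h. Csf2rb reached 118, 276 and 861 CPM in those cultures, and it exceeded LPS_lo alone by 1.25 ± 0.23 (p = 8.9e-05).

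At 4 h Csf2rb fell with LPS_hi in 2 of 4 comparisons. It stood at 128, 100 and 114 CPM on 1 plate and at 42.1, 44.8, 46.5 and 44.1 CPM on the other, a fall of 1.11 ± 0.20 against the chemokines (limma adjusted p = 4.8e-07). With ATP it was 155, 190 and 228 CPM with LPS_hi and 289, 355 and 573 CPM without (lowest, median and highest), a fall of 0.96 ± 0.26 without overlap (4.96% of all genes). Most cultures of ATP alone were on 1 plate and most of those of LPS_hi with ATP on the other. Without the ATP culture of 573 CPM the difference was -0.74 (limma adjusted p = 0.0799). With nicotine the difference was -0.40 ± 0.21 (p = 0.218 in limma) and with norepinephrine -0.53 ± 0.22 (p = 0.0944), neither of them called. In the 4 comparisons 12.4% of all gene tests were called lower. The level was higher with norepinephrine. The cultures of LPS_hi with norepinephrine held 230, 291, 300, 274, 223, 232, 268 and 228 CPM, all above those of LPS_hi alone (0.508% of all genes). They exceeded LPS_hi by 1.90 ± 0.22 (p = 1.4e-13), where 2.85% of all genes were called. ATP added to LPS_hi gave 1.49 ± 0.24 (p = 2.8e-07). Against untreated cultures of 24 h, a comparison in which the time differs too, norepinephrine alone for 4 h was at 303, 345 and 513 CPM, 1.41 ± 0.18 higher and without overlap (0.112% of all genes). In comparisons of that kind 3.94% of all gene tests were called higher.

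Csf2rb2, the beta chain that serves IL3 in mice, is shown with its promoter because P3C, LPS and IFNg moved it in different directions. The window is the 250 bases before the start in RefSeq (GRCm38.p6, chr15:78305722-78305971, minus strand), and capitals mark a match to the GAS motif TTCNNNGAA, bound by STAT factors, with its first base 15 bases before the start.
Csf2rb2: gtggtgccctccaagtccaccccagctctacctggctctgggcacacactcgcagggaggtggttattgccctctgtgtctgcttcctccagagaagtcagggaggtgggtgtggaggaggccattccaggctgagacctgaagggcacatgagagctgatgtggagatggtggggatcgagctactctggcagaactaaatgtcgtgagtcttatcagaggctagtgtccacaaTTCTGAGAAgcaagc
On either strand, the GAS motif occurs in 7.02% of all windows. Promoters of 5 of the 9 members were in the table, and 2 are printed. All were searched for the NF-kB, AP-1, GAS, PU.1, C/EBP, CRE and ISRE motifs, each found in 1.41% to 9.56% of all windows. A match to any of them is therefore more frequent than the share of 1 motif. Of the windows not printed, that of Csf2ra held a CRE match, that of Csf2 a C/EBP match and that of Csf3r 0 matches.

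P3C lowered Csf2rb2 most at 72 h. The cultures held 28.8, 31.8, 32.6 and 30.1 CPM on 1 plate and 4.74 and 2.24 CPM on the other, against 30.5, 119 and 203 CPM in untreated cultures (lowest, median and highest). The groups overlapped at 1 edge, and the fall was 2.70 ± 0.31 (limma adjusted p = 1.7e-15), 1.61 and 4.20 on the 2 plates. At 24 h the values were 12.96, 33.4 and 55.5 CPM, a fall of 1.14 ± 0.29 (p = 0.0011). TNFa with P3C lowered it by 2.66 ± 0.29 at 72 h. The difference of the P3C effect between times, -1.56 ± 0.43 (p = 0.0085), was lost without plate in the model.

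Csf2rb2 was higher when PGE2 was added to P3C. With both agents the 7 cultures held 189, 107, 140.4, 77.0, 92.4, 98.8 and 174 CPM, all above those of P3C alone (2.17% of all genes). The difference was 3.16 ± 0.37 (limma adjusted p = 3.3e-14), where 5.82% of all genes were called. Csf1r was 1.09 ± 0.25 higher with both agents than with P3C (p = 0.00064). TNFa with PGE2 raised Csf2rb2 over untreated cultures by 1.34 ± 0.28 (p = 4.0e-05).

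LPS_hi lowered Csf2rb2 at 72 h, to 1.31, 36.7 and 86.9 CPM, a fall of 1.46 ± 0.23 (limma adjusted p = 9.2e-09, lower on 4 of 4 plates). At 24 h the difference of -0.39 was not called (p = 0.0982), and the effects at the 2 times differed by -1.07 ± 0.30 (p = 0.0087). LPS_hi was also lower than LPS_lo at 72 h, by 1.02 ± 0.28 (p = 0.011). At 4 h LPS_hi stood at 58.5, 55.4, 36.4, 23.3, 17.6, 14.6 and 22.5 CPM, a fall of 1.46 ± 0.30 against the chemokines (p = 2.0e-05). The other 3 comparisons of 4 h were not called, with differences of -0.28 for nicotine, -0.17 for ATP and 0.28 for norepinephrine (limma adjusted p = 0.678, 0.933 and 0.714). Norepinephrine with LPS_hi gave 99.0, 149 and 256 CPM, without overlap (0.508% of all genes), and exceeded LPS_hi by 2.37 ± 0.34 (limma adjusted p = 5.6e-09).

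Csf2rb2 rose with IFNg. At 72 h its 6 cultures held 142, 214 and 350 CPM, a rise of 1.26 ± 0.31 (limma adjusted p = 0.00075) with overlap, and at 24 h the rise was 0.80 ± 0.25 (p = 0.014), lost with library pool in place of plate.

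**Figure D4:**
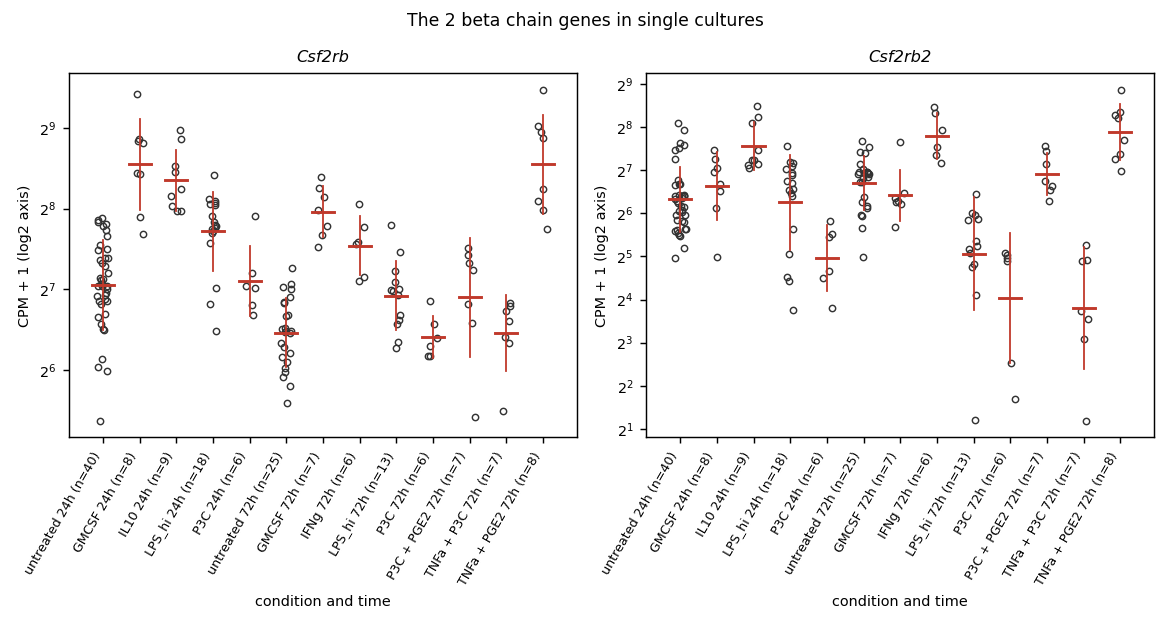
Csf2rb and Csf2rb2 in each culture of 13 groups, as CPM + 1 on log2 axes; points are cultures, and the red line and bar are the mean and SD of the log2 values. Csf2rb is above every untreated culture of its time with GMCSF at 72 h and with TNFa plus PGE2. Csf2rb2 is lowest with TNFa plus P3C and with P3C alone at 72 h.

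In all, GMCSF changed 1 of the 7 tested members at 24 h (Csf2rb) and 3 at 72 h (Csf1, Csf2rb and Csf3r), where 4.17% and 10.3% of all genes were called. The genes downstream of the receptor give the scale. Of 11 genes of the Jak2 and Stat5 arm, 5 rose and 0 fell at 24 h, with a list median of 0.80 against -0.07 over all genes tested. Socs2, a feedback inhibitor, had a mean of 242 CPM with GMCSF and 6.39 CPM in untreated cultures, a rise of 5.14 ± 0.41. Cish, also a Stat5 target and inhibitor, had means of 28.8 and 0.207 CPM, a rise of 4.41 ± 0.25, and the kinase Pim1 rose by 2.86 ± 0.39. At 72 h 6 of the 11 rose and 0 fell, led by Cish (5.50), Socs2 (4.52) and Socs3 (3.06), with a list median of 1.81 against 0.01.

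Other genes of the system were also read with GMCSF. Of the 4 genes of the IL3 and IL5 system, which share the beta chain, Il3ra alone passed the filter, and it rose by 1.13 ± 0.40 at 72 h (limma adjusted p = 0.047). Among factors known to act on Csf1r, 1 of 8 rose and 1 fell at each time, Cebpb by 1.53 and 1.28 and Cebpa by -0.62 and -1.05. Of 11 signalling partners of Csf1r, 0 rose and 1 fell at 24 h, and none was called at 72 h. The summed CPM of 9 neutrophil genes was 28.5 to 207 with GMCSF at 24 h and 2.39 to 32.6 in untreated cultures. The neutrophil genes S100a9, Ly6g, Camp, Ngp, Ltf and Retnlg were at 0 in all 8 of these GMCSF cultures. The perivascular macrophage list was 388 to 1440 CPM with GMCSF at 24 h and 145 to 465 CPM in untreated cultures, with 1 of 5 genes higher and 1 lower. At 72 h the 4 dendritic cell genes summed to 220 to 1609 CPM with GMCSF and 11.9 to 120 CPM in untreated cultures without overlap, with 1 of 4 genes higher. The neutrophil list at 72 h was 21.5 to 118 and 0.594 to 149 CPM, and the monocyte list 26.4 to 85.6 and 0.209 to 27.9 CPM. Their part in the GMCSF changes of Csf1, Csf2rb and Csf3r was not tested.

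Across the means of 97 conditions, which share plates and untreated references, the paralogues Csf2rb and Csf2rb2 correlated with each other (Pearson's r = 0.52 on the log2 scale). Some of their reads can be assigned to either gene. For Csf2ra and Csf2rb, the chains of the GM-CSF receptor, r was 0.17. Csf1r ran against Csf3 (r = -0.52) and with Csf2rb2 (r = 0.46), and Csf3 ran with Csf3r (r = 0.48). Csf3 was above 0 in 46 of the 98 groups, at low values in most of them, so its correlations rest on the groups that held it. The genes most like Csf3 were Serpinb2 (r = 0.90), Sprr2f (0.84) and U90926 (0.83). Those most like Csf1 were Rgs16 (0.83), Akap2 (0.83) and Gm26584 (0.82). Csf1r was most like Gamt (0.76), Stab1 (0.75) and Itgb5 (0.74), and Csf2rb like Ccr1 (0.71), Gda (0.62) and Ahnak (0.59). Csf2rb2 was most like Endod1 (0.62), Csf3r like Limd2 (0.65) and Csf2ra like Speg (0.56).

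In mice, 6 members passed the filter, and 3 of them, Csf1, Csf2rb and Csf2rb2, rose within 4 h of LPS, where 22.4% of all genes were called and 8.79% were called higher. Csf1 was 31.6, 26.6, 34.6 and 17.6 CPM with LPS and 9.42, 12.8, 12.3 and 9.86 CPM with PBS, a rise of 1.21 ± 0.23 on the log2 scale (limma adjusted p = 0.0015). Csf2rb was 172, 159, 214 and 194 CPM with LPS and 71.4, 65.7, 86.3 and 78.7 CPM with PBS, a rise of 1.28 ± 0.14 (p = 1.1e-05). Csf2rb2 was 201, 141, 209 and 192 CPM with LPS and 79.8, 94.0, 39.7 and 66.9 CPM with PBS, a rise of 1.44 ± 0.22 (p = 0.00033). For none of the 3 did the groups overlap, which held for 25.5% of all genes.

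The other receptors were not called in the LPS mice. Csf1r was 16736, 15189, 19819 and 19011 CPM with LPS and 17789, 21628, 21578 and 17916 CPM with PBS, a difference of -0.16 ± 0.16 (limma adjusted p = 0.511) beside a median of all genes of -0.19. Csf2ra differed by 0.21 (p = 0.453) and Csf3r by 0.21 (p = 0.525). Csf3 was 0, 1.27, 0.926 and 0.696 CPM with LPS and 0.198 CPM in 1 PBS mouse and 0 in the others, too low for the filter. Il34 was above 0 in 0 of 4 LPS mice and 2 of 4 PBS mice, and Csf2 in none of these 8.

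Genes of the pathway moved with LPS in the mice too. Of the Jak2 and Stat5 arm, 7 genes rose and 0 fell, led by Socs3 (4.70), Cish (4.56) and Pim1 (4.41), with a list median of 1.27. All 8 tested NF-kB and AP-1 genes rose, led by Fosl2 (3.36), Junb (3.21) and Nfkb2 (2.76). Among factors known to act on Csf1r, 5 rose and 1 fell, Fos rising by 4.20 and Cebpb by 3.04 while Cebpa fell by 0.89. Of 6 factors that control the decay of cytokine RNAs, 3 rose and 1 fell, Zfp36 rising by 3.61 and Zc3h12a by 2.78. Markers of other myeloid cells moved with the treatment: the summed CPM of the neutrophil list was 215 to 405 with LPS and 109 to 195 with PBS, with 5 of 8 tested genes higher, and that of 7 monocyte genes 68.3 to 140 and 26.99 to 59.4. Their part in the rises of the members was not tested.

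Set beside the cultures, Csf1 was higher with LPS at 4 h in both, while Csf2rb rose in mice and fell in 2 of the 4 culture comparisons of 4 h, with uncalled differences of -0.40 and -0.53 in the others. Of the falls, that with ATP was not called when a single ATP culture was left out. The difference between the systems was not tested, and they differ in age, route, dose and reference.

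Between 22 and 2 months, Csf1 was the called member, where 10.8% of all genes were called and 6.95% were called higher. Library batches of these mice were inferred from the library numbers in the sample titles. In the first library batch Csf1 was 34.02, 36.7, 39.001 and 24.1 CPM in old mice and 12.9, 8.17, 21.7 and 24.4 CPM in young mice. In the second it ran from 16.3 to 43.2 CPM in 9 old mice and from 9.79 to 22.6 CPM in 7 young mice. The groups overlapped, and with the batch in the model Csf1 was 0.74 ± 0.19 higher at 22 months (limma adjusted p = 0.0087). The differences were 1.04 and 0.59 in the batches fitted alone, where neither was called (p = 0.159 and 0.098).

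Csf2rb was 73.1 to 158 CPM at 2 months and 83.3 to 252 CPM at 22 months, a difference of 0.32 ± 0.12 that was not called (limma adjusted p = 0.106). Csf3r was 53.5 to 106 CPM and 55.2 to 110.5 CPM (difference 0.21, p = 0.242). Csf1r differed by -0.04 with age (p = 0.844). It ran from 9869 to 15329 CPM in the first library batch and from 19477 to 25736 CPM in the second without overlap. The share of all genes that separated between the batches was not counted. Csf2ra and Csf2rb2 differed by 0.11 and 0.10 and were not called. Csf3 was listed at 0 in all 24 mice of this experiment. Il34 was above 0 in 5 of 13 old and 4 of 11 young mice.

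Genes around the receptors were read with age too, beside the 10.8% of all genes that were called. Of 10 tested genes of the Jak2 and Stat5 arm 2 rose, Pim1 by 0.97 and the phosphatase Ptpn6 by 0.30, and 1 of 7 factors known to act on Csf1r fell, Jun by 0.49. Of 11 signalling partners of Csf1r, 1 rose and 2 fell. Of 8 NF-kB and AP-1 genes 2 rose and 1 fell, and of 6 factors of RNA decay 2 fell. The neutrophil list summed to 422 to 4880 CPM in old mice and 223 to 1445 CPM in young mice, with 8 of 9 genes higher, and the monocyte list to 87.5 to 385 and 49.4 to 137. Their part in the Csf1 difference was not tested.

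**Figure D5:**
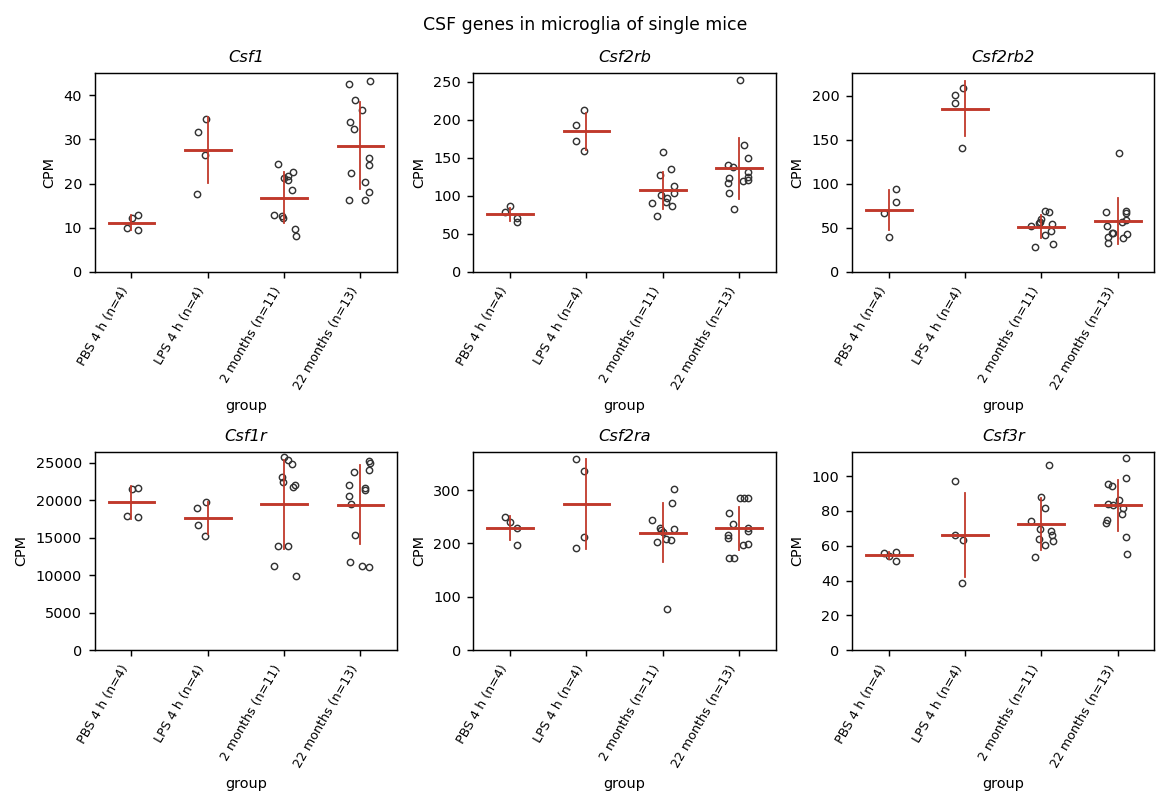
The 6 members that passed the filter in mice, in CPM on linear axes from 0, for PBS, LPS, 2 month and 22 month mice; points are mice, and lines and bars are the mean and SD. Csf1, Csf2rb and Csf2rb2 of the 4 LPS mice lie above those of the 4 PBS mice, and Csf1r of the naive mice falls in a lower and a higher group of libraries.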

How the data were processed

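RNA was sequenced from the 3′ end (75-base reads) in the cultures and in 32 mice. Using Salmon 0.7.1 and Ensembl build 81, the authors summed reads per gene, divided by all mapped reads and discarded shallow cultures. The deposited values are therefore CPM without correction for length, although the study's term is TPM. Among low values, 77.3% in the median culture and 84.3% in the median mouse lay within 0.1 of a whole read, so counts were not rebuilt. The total depth per sample was read from the step between low values, and 1 CPM is 1 read in the shallowest culture.

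Groups, doses and times came from the labels, and plates, pools and source IDs (taken as lots of cells) from the table header. Library batches of the mice were inferred from the library numbers in the sample titles. No culture or mouse was a copy of another (0 identical samples). Values were transformed as log2(CPM + 1) and fitted in R 4.3.3 by limma 3.58.1 (Benjamini-Hochberg adjusted p). All cultures shared a fit with plate as a term over 16942 genes above 5 CPM in at least 4 cultures. In mice, 9012 genes (LPS) and 9632 genes (aging, at least 11 mice, library batch as a term) were tested. The fit was tested on simulated data. The members and gene lists were chosen with earlier results of these data known. Named are 13 single stimuli, up to 3 further rises and 3 further falls per member and time, and up to 3 genes per list with the largest change among those called. Alternatives were the filter, the pseudocount, plate or library pool, leaving out single replicates, and a fit of only the condition and its reference (chosen after seeing the data). Each replicate was left out in culture groups of at most 5 and in the LPS experiment in mice. A few cultures far from their group were also left out (chosen after seeing the data). Other steps used Python 3.11.15, pandas 2.3.3, numpy 2.4.6 and matplotlib 3.10.9. The authors' clustering was not used. Promoters of 5 members were matched by symbol.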

Additional observations from a re-analysis of the deposited data

Results flagged for a closer look

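Each gene was examined in a selected set of groups of 4 to 10 samples, where the gene reached 5 CPM. Other groups were not examined in this way, so the list below is not complete. In 22 of 199 such pairs of a gene and a group, 1 sample stood far from the others of its group (Dixon's ratio). The limit used is met by chance in about 1 of 20 groups of normally distributed values. Many CPM values here are 0 and a few are high, so the rate expected by chance is not known. For Csf1 the samples were 1 culture of LPS_lo at 24 h (13.7 CPM, the others 0 to 3.77), 1 of polyIC at 72 h (69.8, the others at most 0.893), 1 of TNFa at 24 h (16.6, the others 0.251 to 6.38), 1 of TNFa with P3C at 72 h (23.8, at most 0.768), 1 of the mixture of IL4, IL10 and IL13 at 72 h (41.3, at most 3.20) and 1 of LPS_hi with norepinephrine at 4 h (97.4, the others 22.2 to 50.4). For Csf3 they were 1 polyIC culture of 24 h (8.23 CPM, the others at most 0.673) and 1 of LPS_hi with minocycline (64.4, at most 4.59). That polyIC culture correlated with the P3C mean across genes at 0.955, against 0.912 with the other polyIC cultures. Without it Csf1r changed by -1.04 and Csf3r by 0.99 (limma adjusted p = 0.0495) with polyIC. Il34 reached 7.80 CPM in 1 culture of LPS_hi with norepinephrine (the others at most 1.36).

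For Csf1r, 1 TGFb culture of 24 h held 3299 CPM (the others 1621 to 2382) and 1 PA culture of 24 h 3857 CPM (1781 to 2385). Csf2ra was 1105 CPM in 1 culture of TNFa with PGE2 at 72 h (279 to 549), and Csf2rb was 239 CPM in 1 P3C culture of 24 h (101 to 146). For Csf2rb2 the far values were 299 CPM with IFNa (141 to 181), 200.4 CPM with GMCSF (50.1 to 87.4), 215 CPM with IL13 (26.9 to 97.3) and 340.4 CPM with IL4, IL10 and IL13 (112 to 171), all at 72 h, and 106 CPM with LPS_hi plus nicotine at 4 h (45.3 to 72.9). For Csf3r they were 24.0 CPM with IFNb (4.57 to 14.6), 29.2 CPM with GMCSF (1.07 to 10.1), 9.30 CPM with TGFb (5.14 to 6.65) and 47.7 CPM with LPS_hi plus minocycline (8.87 to 20.9), all at 24 h.

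The effect of a stimulus differed between 72 and 24 h in 5 cases, by the interaction in limma. The cultures compared at 72 h and at 24 h were on different plates, so time and plates cannot be told apart here. The differences, 72 h minus 24 h, were 1.01 for Csf1r with LPS_hi, -1.07 for Csf2rb2 with LPS_hi, -1.21 for Csf3 with P3C, -1.32 for Csf2ra with P3C and -1.56 for Csf2rb2 with P3C. GMCSF and IL4, tested the same way, gave 0 calls among the members in limma, and 2 members had an unadjusted p under 0.05 with each (Csf1 and Csf2rb2, and Csf2rb and Csf3r).

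A single 72 h culture is labelled LPS_hi but carries the lower dose of 0.00001 ug/ul, and it entered no comparison of its own. Its Csf2rb level was 175 CPM, above the 47.1 to 153 CPM of untreated cultures of 72 h.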

How the results depend on the processing

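No paired analysis was possible because the labels carry no replicate numbers. Where a log2 change of 1 in size was required too, the calls among members went from 47 to 27 at 24 h, from 64 to 33 at 72 h and from 1 to 0 with age. Calls for a second agent went from 22 to 12 when only the condition and its reference were fitted, those between stimuli from 5 to 3 with a filter of 10 CPM in 8 cultures, and those between times from 5 to 8 without plate. The aging call went to 0 in the first or the second library batch alone. Single replicates were left out only in culture groups of at most 5, for a few cultures far from their group, and in the LPS experiment in mice. This gave 46 to 48 calls at 24 h, 62 to 65 at 72 h, 9 to 10 at 4 h (10 with all), 20 to 23 for a second agent and 3 to 3 in the LPS mice. At 24 h the compared groups lost far cultures alone. Calls between stimuli and between times stayed at 5, but the groups with these calls lost no culture, so those calls were not tested in this way. The differences that changed sign were not called: with age, Csf1r was 0.017 in the first batch alone and 0.013 without batch, and Csf2rb2 was -0.18 in the second batch alone. Of 153 called changes of members in cultures, 143 were kept with a filter above 0 CPM, 139 with a pseudocount of 0.1, 135 with library pool, 119 without plate and 102 of the 133 that could be fitted alone. All of these kept 90, and 0 reversed. Of the 27 called changes in cultures whose compared groups lost a replicate in such fits, 13 kept their call each time and 14 lost it at least once. The cause of the lost calls was not tested. Fits over all cultures assume that every group varies alike. Depth limits Csf2, Il34 and Csf3 most, whose values rest on medians of 2.00, 3 and 4.00 reads in the cultures that held them.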
